A study of Homo sapiens with 12 samples.

Results

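A pair of control conditions of one breast cancer cell line were set against each other at the level of poly(A) RNA: cells living on a transfected, alpha-amanitin-resistant wild-type RNA polymerase II, and cells given a control siRNA. All cells were T47D-MTVL, a T47D line (luminal breast epithelium, hormone receptor positive) with 1 copy of a luciferase reporter behind the MMTV promoter, kept in phenol red-free medium with charcoal-stripped serum. In the first group, called WT RNAP2, an HA-tagged wild-type polymerase that alpha-amanitin does not block (WTr in the labels) was expressed for 24 hours, and alpha-amanitin at 6 µg/ml was then present for 12 hours. In the second group, called si-control, cells were transfected with sictrl RNA using Lipofectamine 3000, and no alpha-amanitin is named for them. The members were set by these labels, with earlier results of these data known, and are 4 libraries, 2 in each group, of the 12 in the series. Each group was the control of its own experiment, so alpha-amanitin, expression of the tagged polymerase, siRNA transfection and any batch between the experiments cannot be told apart in any difference given here. The vector and promoter behind the tagged polymerase, the siRNA's dose and time, and whether replicate libraries stem from separate cultures are not given in the sources used here. If they do not, the p-values measure a technical spread only. The other arms of the same experiments, R1810A RNAP2 (the tagged polymerase with an arginine-to-alanine change in its largest subunit, under the same alpha-amanitin) and siPADI2 (siRNA against the peptidylarginine deiminase PADI2), were used beside them; they share no library with the main comparison.

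Alpha-amanitin binds RNA polymerase II and stops it on the template, after which the largest subunit is degraded in many cells, so that transcription rests on a resistant enzyme where one is expressed. Double-stranded RNA and other foreign nucleic acid in a cell can be read by sensors such as RIG-I and MDA5, which switch on type I and type III interferon genes. Secreted interferon then acts through its receptors, the kinases JAK1 and TYK2 and a transcription factor complex with STAT2 and IRF9, which binds the interferon-stimulated response element in the promoters of many antiviral genes.

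Each of the 4 libraries held between 44318629 and 132764704 fragments assigned to genes, and both extremes were si-control libraries, replicate 1 the shallowest and replicate 2 the deepest. Replicates differed by more than counting error in both groups. Of 57820 genes counted, 19020 had enough counts to test. In WT RNAP2, 5250 genes (27.6% of those tested) were higher than in si-control and 5083 (26.7%) were lower at an adjusted p under 0.05 (edgeR's quasi-likelihood test, Benjamini-Hochberg adjustment). By at least 2-fold, 1791 genes (9.42%) were higher and 1188 (6.25%) were lower. Among protein-coding genes at 5 CPM or more 25.3% were higher and 36.6% lower. A list of such genes can thus exceed 26.7% lower without standing out. The median log2 difference over all genes tested was 0.02 after TMM scaling and 0.10 when libraries were scaled by their total counts. Fragments from the tagged polymerase and from the cells' own POLR2A mRNA cannot be told apart in a count per gene, and neither the HA tag nor the luciferase reporter was among the genes counted. POLR2A, the largest subunit (hg19, chromosome 17, 7387685 to 7417933), read 473 and 387 CPM (counts scaled to library size) in si-control and 482 and 508 in WT RNAP2. Its log2 difference was 0.20 (SE 0.09, adjusted p = 0.042) and lost its call without any 1 of 3 of the 4 libraries, with log2 differences from 0.07 to 0.23. PADI2, the target of the siRNA in the other arm, read 23.2 and 21.8 CPM in si-control and 45.8 and 48.8 in WT RNAP2.

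The groups were separated most by the interferon response, so the promoters of genes from that group are shown first, together with promoters from the groups that rose. Each is the RefSeq promoter of the GRCh38.p14 assembly, from 250 bases before to 50 bases after the start of the gene, on the strand of the gene. Capitals in the first 5 mark the letters GAAANNGAAA, a core of the interferon-stimulated response element, or their reverse complement TTTCNNTTTC. IFI44L and IFI27 had the lowest log2 differences of the list. OAS1 is included because it has no match to these letters although its RNA was among the largest falls. Its window does hold gaaacgaaa, the same repeat at a shorter spacing, which the search did not count.

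IFI44L, chr1:78620198-78620497, plus strand: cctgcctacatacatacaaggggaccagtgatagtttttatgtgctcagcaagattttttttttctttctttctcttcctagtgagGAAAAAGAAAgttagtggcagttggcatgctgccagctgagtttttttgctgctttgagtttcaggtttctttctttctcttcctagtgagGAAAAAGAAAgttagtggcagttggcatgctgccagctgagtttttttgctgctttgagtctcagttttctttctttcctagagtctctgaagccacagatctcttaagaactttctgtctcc

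IFI27, chr14:94110486-94110785, plus strand: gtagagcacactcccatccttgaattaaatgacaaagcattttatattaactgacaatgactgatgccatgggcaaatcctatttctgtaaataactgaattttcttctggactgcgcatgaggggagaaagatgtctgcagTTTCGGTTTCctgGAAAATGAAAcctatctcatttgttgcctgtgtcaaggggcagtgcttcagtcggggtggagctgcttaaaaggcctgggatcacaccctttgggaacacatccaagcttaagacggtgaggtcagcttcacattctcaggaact

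ISG15, chr1:1013247-1013546, plus strand: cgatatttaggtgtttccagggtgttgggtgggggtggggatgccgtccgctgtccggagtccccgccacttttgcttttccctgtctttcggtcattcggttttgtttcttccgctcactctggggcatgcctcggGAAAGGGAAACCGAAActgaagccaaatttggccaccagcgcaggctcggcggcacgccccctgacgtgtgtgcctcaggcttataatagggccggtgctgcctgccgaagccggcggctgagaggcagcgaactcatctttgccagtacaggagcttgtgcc

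IFIT3, chr10:89327747-89328046, plus strand: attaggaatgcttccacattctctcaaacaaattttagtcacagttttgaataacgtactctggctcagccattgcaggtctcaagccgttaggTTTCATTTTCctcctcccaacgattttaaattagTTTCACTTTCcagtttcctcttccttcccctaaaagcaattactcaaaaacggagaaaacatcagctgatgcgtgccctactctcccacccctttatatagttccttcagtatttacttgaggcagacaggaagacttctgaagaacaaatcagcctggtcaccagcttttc

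OAS1, chr12:112906712-112907011, plus strand: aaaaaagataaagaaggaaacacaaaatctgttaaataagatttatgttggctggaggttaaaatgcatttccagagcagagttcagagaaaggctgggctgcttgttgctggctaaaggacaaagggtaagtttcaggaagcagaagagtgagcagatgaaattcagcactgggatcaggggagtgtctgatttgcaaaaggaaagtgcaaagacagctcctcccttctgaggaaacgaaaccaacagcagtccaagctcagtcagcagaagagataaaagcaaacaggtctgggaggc

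Promoters were found for 32 of the 40 interferon response genes. On either strand 19 of the 32 (59.4%) held GAAANNGAAA, against 996 of all 27305 promoters in the table (3.65%) and 343 of the 12373 promoters of genes tested (2.77%). ISG15 holds overlapping matches. The same letters were in 7 of 12 promoters of antigen presentation genes and in none of the 25, 26, 17 and 24 promoters of the G2/M, G1/S, cholesterol and hypoxia lists described further on. The motifs were chosen after the values had been seen. A match describes the letters of the window and is not shown to be a bound site.

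The interferon response was far lower in WT RNAP2 than in si-control. All 40 of the 40 listed genes passed the filter on low counts and were lower, against 26.7% of all genes tested called lower. Libraries of the groups did not overlap in any of them, which also held for 14345 of the 19020 genes tested, in either direction. The median log2 difference of the list was -4.44, and the 40 values ran from -8.73 to -1.70. These genes took 2.24% and 2.19% of all CPM in the si-control libraries and 0.120% and 0.126% in the WT RNAP2 libraries. Of the 100 genes with the largest falls (among 6602 called genes at 5 CPM or more whose libraries do not overlap), 35 were in this list, and 30 were among the first 50.

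IFI44L, an interferon-induced antiviral gene on chromosome 1 (hg19, 79085607 to 79111830), had 24.9 and 26.9 CPM in si-control and 0.0601 and 0.0597 CPM in WT RNAP2, which is 1071 and 3468 fragments against 8 and 8. Its log2 difference was -8.73. IFI27, a small mitochondrial and endoplasmic reticulum protein widely used as an interferon marker (hg19, chromosome 14, 94571182 to 94583033), had 768 and 725 CPM against 2.65 and 2.66 CPM, a log2 difference of -8.13 (SE 0.12). In both genes the replicates of a group lay close together, and the level in WT RNAP2 was 425-fold lower for IFI44L and 281-fold lower for IFI27.

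ISG15, a ubiquitin-like protein that is conjugated to other proteins, fell from 595 and 544 CPM to 3.38 and 3.41 CPM (log2 -7.39). Among the RNA-binding IFIT proteins, IFIT3 had 509 and 536 CPM against 3.22 and 3.59 CPM (log2 -7.26), and IFIT1 had a log2 difference of -7.08. OAS1, which makes the 2-5A signal that activates RNase L, had 903 and 894 CPM against 6.64 and 7.45 CPM. The replicates of si-control differed most in IFI6, with 1385 and 950 CPM, and both were above the 13.5 and 17.1 CPM of WT RNAP2. RSAD2 (viperin) had a log2 difference of -6.30 and XAF1 of -6.62. TRIM22, RTP4 and LGALS9, which are not in the list, completed the 12 largest falls with log2 differences of -7.61, -7.10 and -6.42. The largest adjusted p among these 12 was 7.63e-36, for IFI6.

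The smallest fall of the list was that of BST2 (tetherin), which holds budding virus at the cell surface: it had 640 and 611 CPM in si-control and 190 and 194 CPM in WT RNAP2 (log2 -1.70). STAT2 had a log2 difference of -1.83 and the immunoproteasome subunit PSMB8 one of -2.09. MX1, a dynamin-like GTPase, had 3289.7 and 3164 CPM against 47 and 50.4 CPM (log2 -6.05), while its relative MX2 had 42.5 CPM in both si-control libraries against 2.42 and 2.71 (log2 -4.05).

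**Figure D1:**
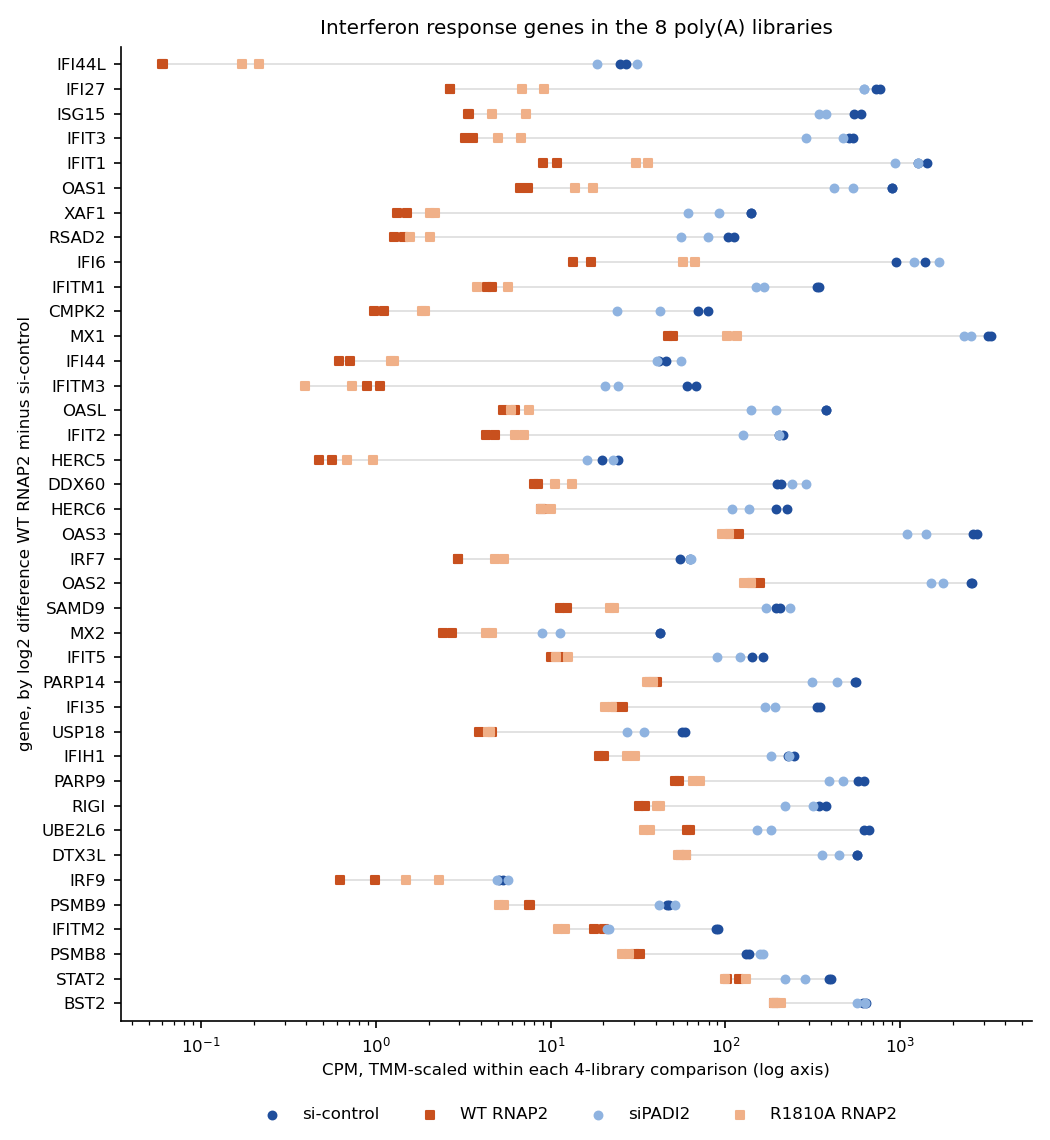
CPM (log axis, TMM-scaled within each comparison of 4 libraries) of the interferon response genes (1 member is not drawn), 1 row per gene and 1 point per library, ordered by the log2 difference of WT RNAP2 minus si-control. In every row the WT RNAP2 points lie left of the si-control points, and IFI44L at the top and BST2 at the bottom span the range from -8.73 to -1.70.

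The interferon genes themselves were counted at low levels, so fragments are given in place of fold changes; this list and the lists of receptors, sensors and antigen presentation genes were drawn up after the values had been seen. IFNB1, a type I interferon of epithelial cells, had 29 and 97 fragments in si-control and 6 and 1 in WT RNAP2. The type III ligand IFNL1 had 53 and 163 fragments against 2 and 1. IFNL2 and IFNL3, which are near-identical copies whose reads the counting may split or drop, had 31 and 94 against 0 and 1, and 31 and 87 against 0 and 0. In all 4 ligands both si-control libraries were above both WT RNAP2 libraries, although si-control replicate 1 was the shallowest library. These ligands passed the filter on low counts only through si-control, so their common direction was favoured by the choice and is no result. Libraries of the groups also did not overlap in 14345 of the 19020 genes tested, in either direction.

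Among the interferon receptors and their kinases 1 of 8 was higher and 3 were lower, with a median log2 difference of -0.05. Beside this, 27.6% of all genes tested were higher and 26.7% lower. The type I receptor chain IFNAR1 had 117 and 134 CPM against 127 and 132 CPM, which overlap (adjusted p = 0.68). The type III receptor chain IFNLR1 was lower (log2 -0.74), as was the kinase JAK1 (log2 -0.69). TYK2 did not pass the test (log2 -0.15, adjusted p = 0.127).

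Of 12 nucleic acid sensors and adaptors tested 10 were lower and 2 were higher, against 26.7% and 27.6% of all genes tested. The RNA sensors RIGI and IFIH1 (MDA5), which are themselves interferon-induced, had log2 differences of -3.43 and -3.61. The DNA sensor IFI16 had 16.7 and 17.9 CPM against 0.353 and 0.425 CPM (log2 -5.47), and TLR3, the endosomal sensor of double-stranded RNA, had a log2 difference of -3.39. The adaptor MAVS was higher (log2 0.41). Too few fragments fell on the DNA sensor CGAS for a test, with at most 3 in any of these 4 libraries.

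All 16 antigen presentation genes were lower, with a median log2 difference of -2.22, against 26.7% of all genes tested called lower. B2M, the light chain of class I molecules, had 1863 and 1983 CPM in si-control and 347 and 348 CPM in WT RNAP2 (log2 -2.47). The peptide transporter TAP1 had a log2 difference of -2.24 and the class I transactivator NLRC5 one of -3.46. ERAP1, which trims peptides, had the smallest fall of the list (log2 -0.50). PSMB8 and PSMB9 stand in this list and in the interferon list.

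The largest increases were spread over genes of several functions. ID1, an inhibitor of helix-loop-helix factors and a direct target of bone morphogenetic protein (BMP) signals (hg19, chromosome 20, 30193086 to 30194318), had 1.56 and 1.11 CPM in si-control and 17.3 and 18.4 CPM in WT RNAP2. Its log2 difference was 3.82 (SE 0.14, adjusted p = 9.01e-167), the largest among genes at 5 CPM or more. This adjusted p was larger by many orders of magnitude in some alternatives, among them the GC correction, although the call was kept. ST8SIA1, the sialyltransferase that makes ganglioside GD3, had 2.69 and 2.59 CPM against 23.2 and 23.8 CPM (log2 3.16). CDC42EP3, an effector of the GTPase CDC42, had 13.4 and 14.6 CPM against 98.4 and 101 CPM (log2 2.83). The cell adhesion genes MCAM, CLSTN2 and CDH19 had log2 differences of 2.85, 2.73 and 2.57, and NTN4, a netrin of basement membranes, had one of 2.62. LYPD6B, GLYATL3, KRT86 and UPK3B followed with log2 differences of 2.95, 2.90, 2.66 and 2.60. SERPINF1, a secreted serpin, had 14.4 CPM in WT RNAP2 replicate 1 and 8.12 in replicate 2 against 1.97 and 1.83, and lost its call when either si-control library was left out (adjusted p = 0.278 and 0.265).

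CCN2, a matricellular protein and a widely used target of the coactivators YAP and TAZ (hg19, chromosome 6, 132269316 to 132272513), lay under 5 CPM on average but had the largest positive log2 difference of all listed genes, 6.02. It had 1 and 11 fragments in si-control against 609 and 608 in WT RNAP2. Both replicates of WT RNAP2 were at 4.58 and 4.54 CPM. Its promoter is shown for its 3 matches, in capitals, to GGAATG, a core of the element bound by TEAD factors, the partners of YAP and TAZ.

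CCN2, chr6:131951323-131951622, minus strand: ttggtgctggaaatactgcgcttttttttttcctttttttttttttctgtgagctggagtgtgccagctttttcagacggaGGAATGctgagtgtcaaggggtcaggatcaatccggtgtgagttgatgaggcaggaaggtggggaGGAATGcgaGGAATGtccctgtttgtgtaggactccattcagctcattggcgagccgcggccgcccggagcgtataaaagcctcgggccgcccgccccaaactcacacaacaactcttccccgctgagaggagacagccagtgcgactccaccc

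In a list of YAP and TAZ with their targets, drawn up after the values had been seen, 11 of 13 genes were higher and none lower, against 27.6% of all genes tested called higher. CCN1, another matricellular target, had 20.3 and 21.4 CPM in si-control and 72.4 and 76.3 CPM in WT RNAP2 (log2 1.83). AMOTL1, an angiomotin, had a log2 difference of 2.11 and ANKRD1 one of 1.83. YAP1 itself (log2 -0.08, adjusted p = 0.416) and WWTR1, which encodes TAZ (log2 -0.09, adjusted p = 0.382), did not pass the test. The letters GGAATG were in 4 of 9 promoters of this list and in 14.05% of all promoters.

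Genes of BMP signalling did not move together. Of 8 in another list drawn up afterwards, 4 were higher and 4 lower, against 27.6% and 26.7% of all genes tested. The ligand BMP7 had 0.627 and 0.543 CPM against 3.85 and 4.15 CPM (log2 2.81), while the ligand BMP4 had 45.3 and 44.2 CPM against 13.9 and 14.3 CPM (log2 -1.66). Beside ID1, the targets ID3 and ID4 were higher (log2 1.19 and 1.54), and ID2, SMAD6 and SMAD7 were lower (log2 -0.81, -1.16 and -1.09).

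**Figure D2:**
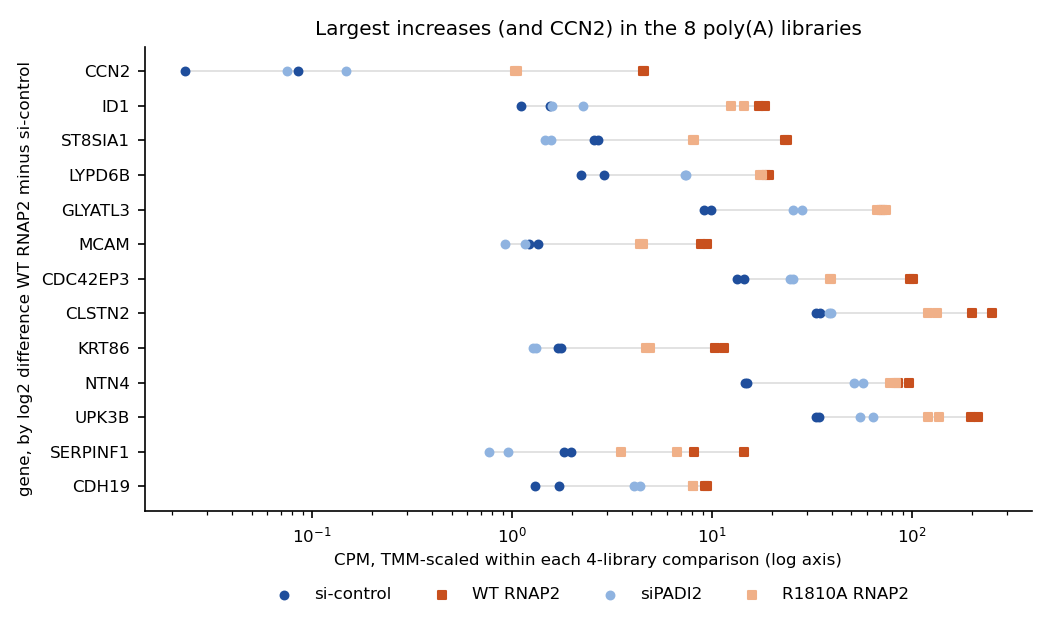
CPM (log axis, TMM-scaled within each comparison of 4 libraries) of CCN2 and the 12 genes with the largest increases, 1 point per library. The WT RNAP2 points lie right of the si-control points in each row, from CCN2 with a log2 difference of 6.02 to CDH19 with 2.57.

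Cell cycle genes were higher in WT RNAP2. All 30 genes of G2 and mitosis were higher, by a median log2 difference of 1.16, and 18 of them by at least 2-fold. Over all genes tested 27.6% were higher, and 9.42% by at least 2-fold. CENPE, a kinetochore motor, had 10.5 and 11.1 CPM in si-control and 40.8 and 42.7 CPM in WT RNAP2 (log2 1.95). DLGAP5, a spindle protein, had 13.5 and 14.7 CPM against 52.2 and 53.1 CPM (log2 1.89), and the spindle genes HMMR and ASPM had log2 differences of 1.83 and 1.81. The proliferation marker MKI67 was higher by 1.44 and the mitotic cyclin CCNB1 by 1.19 on the log2 scale. ECT2, which drives cytokinesis, had the smallest difference, 0.40. In these bulk libraries a larger share of cells in mitosis and more RNA per cell cannot be told apart.

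Of 30 tested genes of G1/S and DNA replication 26 were higher and 1 was lower, with a median of 0.50. The shares of all genes tested were 27.6% and 26.7%. TYMS, which makes thymidylate, had 15.0 and 15.7 CPM against 35.7 and 36.5 CPM (log2 1.23). CDC45 and DTL had log2 differences of 1.15 and 1.11. CDT1, a licensing factor that is destroyed in S phase, was the lower one (log2 -0.25, adjusted p = 0.0239), and its call was lost in some alternatives. The tubulin regulator STMN1 was higher (log2 1.07).

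Promoters of the G2/M list often held TTTGAA, the cell cycle homology region bound by the MuvB complex. It was in 18 of 25 promoters of this list (72%), in 1 of 26 of the G1/S list and in 15.4% of all promoters. The CCAAT box was in 21 of 25 G2/M promoters, against 35.7% of all promoters. The promoters of DLGAP5 and HMMR show these matches, with TTTGAA or its reverse complement TTCAAA in capitals.

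DLGAP5, chr14:55191536-55191835, minus strand: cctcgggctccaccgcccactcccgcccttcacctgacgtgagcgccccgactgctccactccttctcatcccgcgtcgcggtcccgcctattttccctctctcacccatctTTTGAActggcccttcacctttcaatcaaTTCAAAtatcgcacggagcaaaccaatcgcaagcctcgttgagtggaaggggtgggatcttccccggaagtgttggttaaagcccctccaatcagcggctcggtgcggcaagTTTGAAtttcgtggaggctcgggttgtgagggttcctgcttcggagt

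HMMR, chr5:163460382-163460681, plus strand: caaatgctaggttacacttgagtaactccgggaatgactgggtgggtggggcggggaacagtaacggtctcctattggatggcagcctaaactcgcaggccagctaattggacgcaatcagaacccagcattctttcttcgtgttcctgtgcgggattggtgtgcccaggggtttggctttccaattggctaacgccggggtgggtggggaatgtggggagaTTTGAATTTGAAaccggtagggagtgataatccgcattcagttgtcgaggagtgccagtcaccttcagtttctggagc

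Cholesterol synthesis genes were lower in WT RNAP2. Of 23 genes 20 were lower and 1 was higher, with a median log2 difference of -1.17, and 14 were lower by at least 2-fold. Among all genes tested 26.7% were lower, 27.6% higher and 6.25% lower by at least 2-fold. MVD, the mevalonate decarboxylase, had 229 and 184 CPM in si-control and 44.9 and 48.5 CPM in WT RNAP2 (log2 -2.14). MSMO1, a sterol methyl oxidase, had 262 and 309 CPM against 72.2 and 69.7 CPM (log2 -2.01). HSD17B7 and SQLE, the squalene epoxidase, had log2 differences of -1.73 and -1.69. A core of the sterol regulatory element, TCACNCCAC, was in 1 of 17 promoters of the list and in 1.15% of all promoters, and the CCAAT box in 14 of 17.

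Hypoxia-inducible and glycolysis genes were lower too, 22 of 26 with 1 higher and a median of -0.94. Against this, 26.7% of all genes tested were lower and 27.6% higher. LDHA, the lactate dehydrogenase subunit, had 1196 and 1237 CPM against 288 and 306 CPM (log2 -2.03). The hexokinase HK2 had 54.3 and 52.3 CPM against 13.3 and 14.7 CPM (log2 -1.93). VEGFA, the angiogenic factor, and NDRG1, a stress-induced gene, had log2 differences of -1.90 and -1.89. Of the glycolytic enzymes, named after their values were seen, GAPDH had a log2 difference of -0.27 (adjusted p = 0.0128) and ENO1 did not pass the test (log2 -0.14, adjusted p = 0.228). EGLN3, a prolyl hydroxylase that hypoxia induces, was the higher one (log2 0.21, adjusted p = 0.0242), and was not called in DESeq2 or when si-control replicate 1 or either WT RNAP2 library was left out.

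Many short-lived regulator mRNAs were lower. Of 27 immediate early genes tested 19 were lower and 5 higher, with a median of -0.73. Shares over all genes tested were 26.7% lower and 27.6% higher. JUNB had 78.6 and 65.7 CPM against 15.6 and 18.2 CPM (log2 -2.09), and KLF4 had 34.0 and 33.3 CPM against 8.98 and 9.83 CPM (log2 -1.84). JUN had a log2 difference of -0.87, and ATF3, a stress-induced factor, had 44.1 and 42.1 CPM against 20.6 and 22.5 CPM. CCN2, CCN1, FOS, FOSL1 and BTG2 were the 5 higher ones; FOS had only 0.441 and 0.442 CPM against 0.767 and 0.791 CPM and was not called in DESeq2 (adjusted p = 0.11). EGR1 did not pass the test (log2 0.41, adjusted p = 0.0751). Of 32 other short-lived mRNAs 22 were lower and 6 higher. MCL1, a survival factor, was lower by a log2 difference of -0.41 and MYC by one of -0.64, and RND3, a small GTPase, was higher by 1.68.

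In each of the stress lists more members were called lower than higher, by 1 gene only for heat shock, where 26.7% of all genes tested were lower and 27.6% higher. For heat shock the share lower was near the 36.6% of protein-coding genes at 5 CPM or more. Of 24 tested p53 targets 14 were lower and 3 higher, with a median of -0.33. CDKN1A, the cyclin-dependent kinase inhibitor p21, had 311 and 296 CPM in si-control and 77.2 and 84.3 CPM in WT RNAP2 (log2 -1.91). GDF15, a stress cytokine, had 28.3 and 23.6 CPM against 6.01 and 7.03 CPM (log2 -1.99). MDM2, another p53 target, had overlapping values (log2 0.03, adjusted p = 0.78), and XPC, a damage recognition factor, was higher (log2 0.93). Of 26 genes of the integrated stress and unfolded protein responses 16 were lower and 3 higher (median -0.66); CHAC1, which degrades glutathione, had 17.3 and 16.2 CPM against 3.48 and 4.13 CPM (log2 -2.14), and the pseudokinase TRIB3 had a log2 difference of -1.22. Of 10 tested NF-kB targets 8 were lower and 1 higher (median -0.59), with BIRC3, an inhibitor of apoptosis, at 11 and 13.4 CPM against 1.80 and 1.63 CPM (log2 -2.84). Heat shock genes were mixed, 5 of 14 lower and 4 higher with a median of -0.07, and HSPB1 (HSP27) had 3019.9 and 2711 CPM against 656 and 731 CPM (log2 -2.05).

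Hormone response genes were lower more often than higher, and luminal identity genes were mixed. The luminal markers were present in both groups: of 23, 9 were lower and 3 higher, with a median of -0.16. For all genes tested the shares were 26.7% lower and 27.6% higher. For protein-coding genes at 5 CPM or more 36.6% were lower, so the luminal share lower is no result about the list. GATA3 had 738 and 733 CPM against 800 and 828 CPM (log2 0.15, adjusted p = 0.18), and FOXA1, a pioneer factor, had 429 and 468 CPM against 356 and 383 CPM (log2 -0.28), a call lost without WT RNAP2 replicate 1 (adjusted p = 0.0713). ESR1, the estrogen receptor, had a log2 difference of -0.20 (adjusted p = 0.0327), a call lost with total-count scaling (adjusted p = 0.2). PGR, the progesterone receptor, had 316 and 322 CPM against 209 and 239 CPM (log2 -0.51). Of 28 estrogen response genes tested 19 were lower and 6 higher, with a median of -0.43. CXCL12, a chemokine, had 30.8 and 31.5 CPM against 4.68 and 4.64 CPM (log2 -2.74), and the cyclin CCND1 had a log2 difference of -0.47. Of 15 progestin and glucocorticoid response genes 10 were lower and none higher, with a median of -0.54, among them STAT5A (log2 -1.84) and the acyl-CoA synthetase ACSL1 (log2 -1.78). Of 17 markers of other cell types 9 had too few fragments to test, with at most 10 fragments in any of these 4 libraries, among them the immune markers PTPRC and CD3E, and 1 was not matched to a gene. The 7 tested ones were all called, 5 higher and 2 lower (median 0.66). Summed over these 7, their level was 96.1 and 84.5 CPM in si-control and 96.4 and 85.9 CPM in WT RNAP2, most of it from the collagen COL1A1, which was lower (log2 -0.41), and the integrin ITGA6, which was higher (log2 0.81). COL3A1, another fibroblast collagen, had 3 and 2 fragments in si-control against 29 and 24 in WT RNAP2. The basal epithelial markers TP63 and KRT17 had log2 differences of 0.81 and -1.12, at under 1.5 CPM in every library, and the mesenchymal filament gene VIM one of 0.34. The part of other cell types in the results was not tested. CDC20B, a gene of multiciliated cells, had 3.04 and 3.14 CPM against 17.2 and 17.8 CPM (log2 2.50), while of 9 tested genes of that program 4 were higher and 2 lower.

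**Figure D3:**
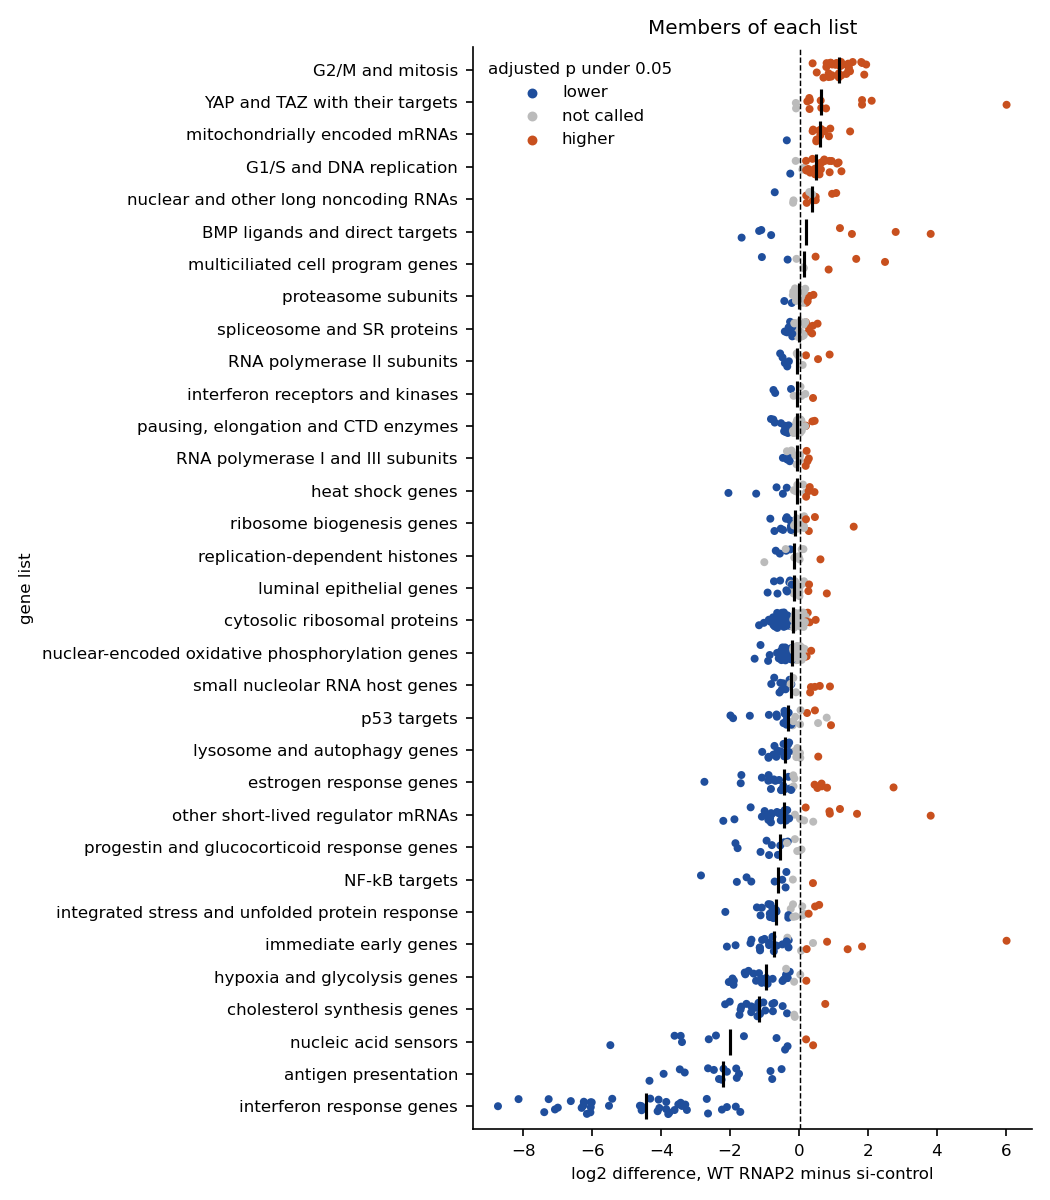
Log2 difference (WT RNAP2 minus si-control) of each tested member of the lists with 8 or more tested members; black bars are list medians, the dashed line is the median of all genes tested (0.02) and colours give the call at an adjusted p under 0.05. The interferon list lies lowest, with a median of -4.44, and the G2/M list highest, with 1.16.

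Genes of the transcription machinery were not all called one way. Of the 12 subunits of RNA polymerase II 3 were higher and 5 lower, with a median of -0.05. Of all genes tested, 27.6% were higher and 26.7% lower. POLR2D, a subunit of the stalk that binds near the exit of the RNA, had 17.8 and 17 CPM against 32.1 and 32.2 CPM (log2 0.89), and POLR2C had a log2 difference of 0.55. The shared subunit POLR2E had one of -0.55. Of 35 genes for pausing, elongation and the tail of the largest subunit 11 were lower and 4 higher (median -0.07), a share lower that is near the 26.7% of all genes tested and is no result about the list. Its member ELL2, an elongation factor, had 45.3 and 51.0 CPM against 27.3 and 27.7 CPM (log2 -0.81), and its relative ELL had a log2 difference of -0.74. HEXIM1, an inhibitor of the elongation kinase P-TEFb, did not pass the test (log2 0.06, adjusted p = 0.54). Of the peptidylarginine deiminases 2 were tested and both were higher: PADI2 by 1.07 (adjusted p = 9.49e-31) and PADI3 by 1.31 on the log2 scale, with 26.1 and 24.7 CPM against 60.1 and 65.3 CPM for PADI3.

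Mitochondrially encoded mRNAs, which another polymerase transcribes, were higher but uneven between replicates. Mitochondrial genes took 5.67% and 6.13% of the fragments in si-control, and 10.4% and 7.27% in WT RNAP2. Of 13 mRNAs 12 were higher and 1, MT-ND3, was lower, with a median of 0.62. The shares of all genes tested were 27.6% higher and 26.7% lower. MT-CO1, a subunit of cytochrome oxidase, had 11709 and 12533 CPM against 21739 and 15508 CPM (log2 0.62). The count of higher members fell to 6 without si-control replicate 1, to 1 without si-control replicate 2 and to 6 in DESeq2, and without WT RNAP2 replicate 1 the median was 0.28. Of 51 nuclear-encoded genes of oxidative phosphorylation 26 were lower and 3 higher (median -0.21), and of 75 tested cytosolic ribosomal protein genes, whose reads can be shared with processed pseudogenes, 37 were lower and 5 higher (median -0.17). MALAT1 and NEAT1, abundant nuclear long noncoding RNAs, differed between the replicates of WT RNAP2, with 618 and 321 CPM for MALAT1 and 484 and 260 CPM for NEAT1, and neither passed the test.

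The other lists differed in direction, where 27.6% of all genes tested were higher and 26.7% lower. Lysosome and autophagy genes had 18 of 25 lower and 1 higher (median -0.39), with the cathepsin CTSD at 1035 and 869 CPM against 499 and 534 CPM. Proteasome subunits had 5 of 30 higher and 2 lower, and spliceosome genes 7 of 36 higher and 8 lower. Both lists had smaller shares called, in each direction, than all genes tested. Subunits of RNA polymerases I and III had 4 of 15 higher and 4 lower, shares near those of all genes tested and no result about the list. Ribosome biogenesis genes had 4 of 27 higher and 10 lower. That share lower is near the 36.6% of protein-coding genes at 5 CPM or more and is no result about the list. NOLC1, a nucleolar chaperone in it, was higher with 84.7 and 86.8 CPM against 245 and 270 CPM (log2 1.59). Of the 13 genes tested in a histone list, 1 was higher and 4 lower. Many histone mRNAs lack poly(A) tails, and reads of near-identical copies can be shared. Small nucleolar RNA host genes had 5 of 17 higher and 9 lower, and of 13 tested long noncoding RNAs 7 were higher and 1 lower (median 0.38).

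The same step between the experiments could be read in their other arms, which share no library with the pair above. In R1810A RNAP2 against siPADI2, 4719 of 19017 genes tested were higher (24.8%) and 4178 were lower (22.0%). Those arms also differ by the R1810A form and the PADI2 siRNA, and PADI2 itself read 1.90 and 1.94 CPM in siPADI2 and 3.33 and 2.42 CPM in the libraries labelled R1810A RNAP2, far under the other pair, although no PADI2 siRNA is named for the latter. Of the genes lower in WT RNAP2 against si-control, 2632 were lower here too, which is 51.8% of the first list and 63.0% of the second, and 443 (8.72% of the first) were called the other way. Of the genes higher, 2610 were higher here too, which is 49.7% of the first and 55.3% of the second, and 270 (5.14%) were called the other way. Of the 100 largest falls 95 were lower in both, and of the 100 largest increases 86 were higher in both.

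All 40 interferon response genes were lower in R1810A RNAP2 than in siPADI2 as well, with a median log2 difference of -3.63. IFI27 had 618 and 619 CPM in siPADI2 and 6.89 and 9.17 CPM in R1810A RNAP2 (log2 -6.27), and IFI44L had a log2 difference of -6.99. IFNB1 had 53 and 70 fragments in siPADI2 and 7 and 3 in R1810A RNAP2. All 30 G2/M genes were higher in this pair also, with a median of 1.28. The cholesterol list had 14 of 23 lower with a median of -0.32, and the hypoxia list 16 of 26 with a median of -0.39. The estrogen response list had 12 higher and 9 lower, and the YAP and TAZ list 5 higher and 4 lower. Mitochondrially encoded mRNAs were higher in 13 of 13, with a median of 1.39.

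A test of the difference between the 2 steps, as an interaction over the 8 poly(A) libraries, called 5196 of 19884 genes (26.1%). LDHA had a log2 step of -2.03 in the control arms and -0.41 in the other arms, a difference of -1.61 (adjusted p = 1.45e-07). MSMO1 differed by -1.61 (adjusted p = 2.32e-07) and CDKN1A by -1.26 (adjusted p = 1.2e-06). CDC42EP3 had steps of 2.83 and 0.65, a difference of 2.20 (adjusted p = 6.85e-09). PGR had steps of -0.51 and 0.80, and SERPINA6, the cortisol carrier, had steps of -0.89 and 1.92, so each was called in opposite directions. CCN2 was higher in both pairs, by 6.02 and 3.24, which differ by 2.80 (adjusted p = 0.000877).

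**Figure D4:**
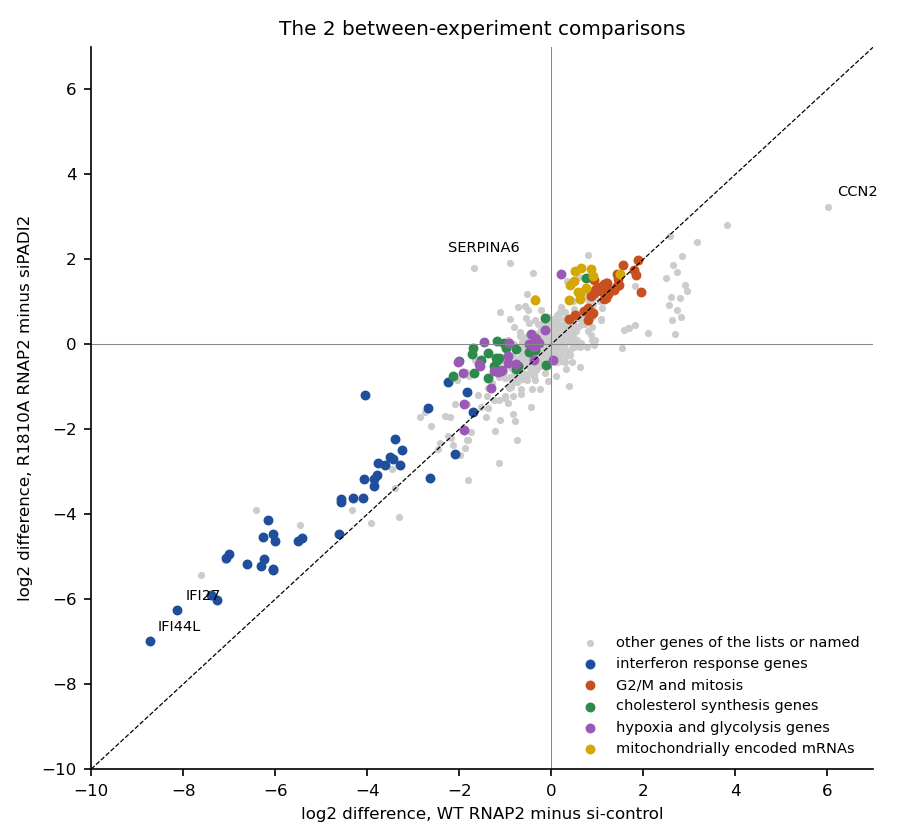
Log2 differences of genes in the lists or named here, in the control arms (horizontal axis) and in the other arms (vertical axis), without the interferon ligands; the dashed line marks equal values. Interferon genes lie low in both, down to IFI44L at -8.73 and -6.99, and G2/M genes lie high in both, with medians of 1.16 and 1.28.

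Gene structure and base composition also moved with the difference. Over all genes tested, the decile with the highest exonic GC content (61.3% to 76.3%) had a median log2 difference of -0.27, with 45.9% lower and 16.9% higher. After a correction of each library for a smooth trend with GC content this median was 0.01. Among 10391 protein-coding genes at 5 CPM or more, a restriction chosen after the splits over all genes had been seen, the highest decile of GC content had a median of -0.36 and 61.6% lower, against -0.08 after the correction. In this population the shortest decile of gene spans (up to 6.34 kb) had a median of -0.25 and the longest decile (155 kb and more) one of 0.05. Over all genes tested the shortest decile had a median of 0.04, so the sign for short genes depends on which genes are taken. Among the protein-coding genes at 5 CPM or more, those of 1 exon had a median of -0.26 and those of 17 exons or more one of 0.00.

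The clearest order was with the ratio of chromatin-associated to poly(A) RNA, taken from the siPADI2 libraries. These are not in the main comparison but belong to the same siRNA experiment as si-control. A gene high in the poly(A) RNA of that experiment gets a lower ratio and a lower log2 difference. Part of the order can thus be built in, and how much was not tested. Protein-coding genes with the lowest decile of this ratio had a median log2 difference of -0.25 and 56.1% lower, and the median was higher in each following decile, up to 0.20 with 46.7% higher. The GC correction left it at -0.17 in the lowest decile and 0.21 in the highest. Level moved with this ratio, since the median log2 CPM was 7.06 in the lowest decile and 3.42 in the highest, and its part was not tested. By kind of gene, long intergenic noncoding RNAs had a median of 0.33 and antisense RNAs one of 0.31, against -0.03 in protein-coding genes. Their levels differed too, with median log2 CPM of -1.39, -1.20 and 4.63 in this order. Over all genes tested, the decile of lowest expression had a median log2 difference of 0.22. Kind of gene and level were not tested apart. The interferon, G2/M, cholesterol and hypoxia lists had medians of -4.33, 1.15, -1.09 and -0.92 after the GC correction.

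**Figure D5:**
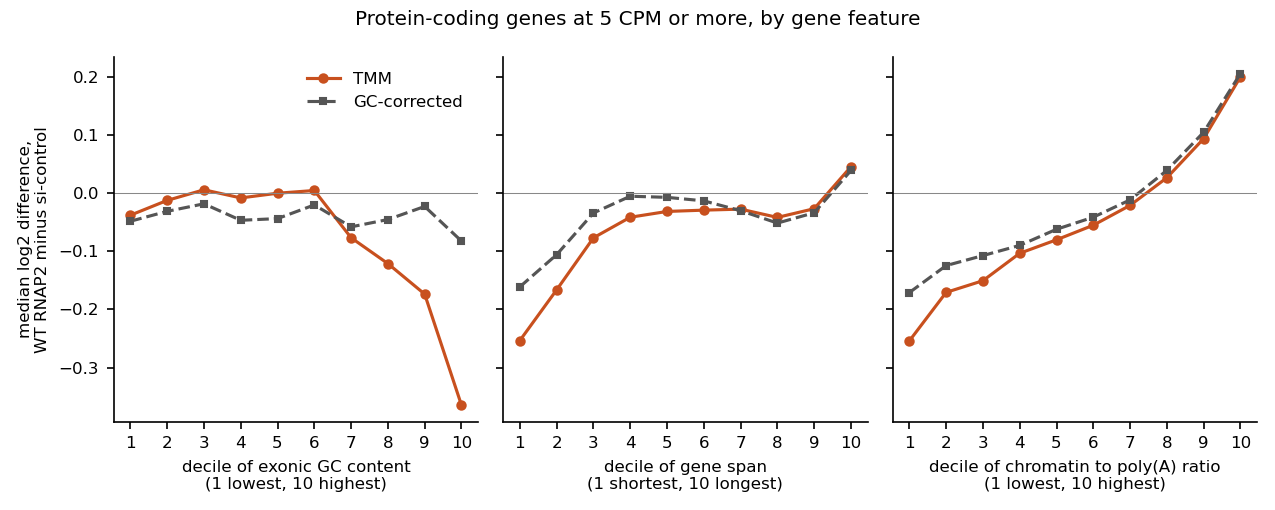
Median log2 difference (WT RNAP2 minus si-control) of protein-coding genes at 5 CPM or more in deciles of GC content, gene span and chromatin to poly(A) ratio; circles are TMM-scaled values and squares GC-corrected values. The circles fall to -0.36 in the decile of highest GC content, where the squares are at -0.08, and both rise across the deciles of the ratio to 0.20 and 0.21.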

How the data were processed

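Poly(A) libraries were TruSeq Stranded mRNA, per the labels' protocols. Reads were trimmed with Trimmomatic and aligned with STAR, per the submitters' processing notes. The deposited counts are whole, unscaled numbers of fragments for each gene of GENCODE 19 (hg19), made by the authors with featureCounts 1.5.1 (1.4.6-p2 for chromatin RNA) counting the reverse strand, per the file headers. Genes were tested with edgeR 4.0.16 (TMM, filterByExpr, robust quasi-likelihood, R 4.3.3) on the 4 libraries of a comparison, with Benjamini-Hochberg adjustment over all genes tested and a threshold of 0.05. The test was run on simulated counts with 1 common dispersion and few changed genes. There 96% of 2-fold increases and 84.4% of 2-fold falls were recovered, with 10 false calls. These data have uneven spread and many more calls, so the simulation does not give the error rate here. Values are TMM-scaled CPM per library, with n = 2 per group. SE is the size of the log2 difference divided by the square root of its F statistic. This approximation can lie under the counting error where a group has few fragments. None is therefore given for IFI44L and CCN2. Symbols of 52338 of 57820 genes came from a separate list of gene names, or from GENCODE 29 where that list had none. GC content was that of the longest GENCODE 29 transcript of each gene. Promoters came from RefSeq (GRCh38.p14). Printed gene coordinates are those of the deposited hg19 tables.

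Named genes were the 12 largest called increases and falls at a mean of 5 CPM or more without overlap of libraries, a fixed list of genes such as POLR2A and PADI2, and up to 4 called members per gene list with the largest change; others named were chosen after their values were seen. The members and lists were chosen with earlier results of these data known. Alternatives were DESeq2 1.42.0, total-count scaling, filters at no minimum and at 1 CPM in 2 libraries, a joint fit of 8 libraries, a replicate block, thinning to the smallest library, a GC correction, a test against a fold of 1.5 and leaving out each library. Some genes of the lists are counted with their list but not reported singly here.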

Additional observations from a re-analysis of the deposited data

Results flagged for a closer look

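Of 156 named genes, 80 had a step between the experiments that differed between the control arms (WT RNAP2 minus si-control) and the other arms (R1810A RNAP2 minus siPADI2), by the interaction test over the 8 poly(A) libraries (edgeR, adjusted p under 0.05). The 44 whose steps differed by at least 1 log2 unit are given here; this size limit was set for length. Each value is the log2 step in the control arms minus that in the other arms. Over all genes the interaction test called 26.1%. Many named genes were picked for a large step in the control arms, which favours a larger step there. The count of 80 is thus no result about the named genes.

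Several genes had opposite directions in the pairs. TFF1, an estrogen-induced trefoil peptide counted at under 0.3 CPM in every library, differed by -3.45 (adjusted p = 0.00234), SERPINA6 by -2.80, PGR by -1.30 and the histone gene H2BC5 by 1.18; these 4 were called in opposite directions. MAOA, with steps of -1.12 and 0.75, differed by -1.86. The falls of TFF1 and MAOA in the control arms were not called in DESeq2 (adjusted p = 0.0955 and 0.107) or when si-control replicate 2 or WT RNAP2 replicate 2 was left out, and reads of H2BC5 can be shared with other histone copies.

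Of the 40 interferon response genes the interaction test called 25 with a more negative step in the control arms and 2 with a less negative one, while 13 were not called, against 26.1% of all genes called in either direction. Of those named, LGALS9 differed by -2.50 (adjusted p = 0.0457), OAS1 by -2.05, IFIT1 by -2.03, RTP4 by -2.02, IFI27 by -1.86, IFI6 by -1.71, ISG15 by -1.46 and XAF1 by -1.42. Among these, LGALS9 and RTP4 are not in the list. IFI44L, TRIM22, IFIT3 and RSAD2, which were among the 12 largest falls, did not pass the interaction test (edgeR, adjusted p = 0.195, 0.131, 0.107 and 0.069). Of the 23 cholesterol synthesis genes 18 had a more negative step in the control arms and 1 a more positive one, and of the 26 hypoxia and glycolysis genes 19 and 1. MSMO1 differed by -1.61, SQLE by -1.59, HSD17B7 by -1.496, MVD by -1.39, LDHA by -1.61 and HK2 by -1.24.

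Of the 28 estrogen response genes 14 had a more negative step in the control arms and 4 a more positive one, and of the 15 progestin and glucocorticoid response genes 7 and none. RET differed by -1.41, STAT5A by -1.18, CXCL12 by -1.13, MYB by -1.08, TSC22D3 by -1.03 and ACSL1 by -1.02. CDKN1A differed by -1.26, RPL14 by -1.19, HSPB1 by -1.19 and BIRC3 by -1.11. TP63, higher in both pairs, differed by -1.28.

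Most of the named genes with a larger increase in the control arms were among the largest increases, which their choice by that increase favours. CCN2 differed by 2.80, CDC42EP3 by 2.20, NTN4 by 2.06, LYPD6B by 1.71, CDH19 by 1.66, GLYATL3 by 1.52, UPK3B by 1.502, CLSTN2 by 1.04 and ID1 by 1.01. SLC7A2 differed by 1.94, CCN1 by 1.38, RND3 by 1.30, FOXJ1 by 1.30 and NOLC1 by 1.26.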

How the results depend on the processing

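With 2 libraries per group the spread rests on few residual degrees of freedom, and a fit that leaves out 1 library assumes that the lone sample varies like the other group. The very small adjusted p-values of ID1, IFI6 and PADI2 moved by many orders of magnitude between alternatives. Their size is no measure of certainty. The number of genes called in WT RNAP2 against si-control stayed within 1.5 times in all alternatives but one: tested against a fold of 1.5 it was 3214, with 1801 higher and 1413 lower, since that test asks for larger changes. The same test gave 1848 calls, 1180 higher and 668 lower, for R1810A RNAP2 against siPADI2. Leaving out 1 library at a time gave 3992 to 4704 genes higher and 3984 to 4794 lower in the main comparison. DESeq2 called 3879 higher and 4480 lower, and total-count scaling 6141 higher and 4120 lower. Replicate numbers do not pair the groups of a comparison. The correlation of replicate differences between the groups was 0.0019 for the main comparison and -0.44 for the other arms. No shared batch is named. Pairing of the arms within an experiment was not tested. Mitochondrial genes took more of the fragments in replicate 1 of both polymerase arms. The shares of replicates 1 and 2 were 10.4% and 7.27% in WT RNAP2 and 12.1% and 7.73% in R1810A RNAP2. With a replicate block the main comparison had 5120 genes higher and 5000 lower. The interaction had 2343 genes higher and 2853 lower, and 3684 and 4082 with a replicate block within each experiment. With total-count scaling it had 3870 and 1822. The cause was not tested.

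Of 1863 values of 156 named genes under alternatives 1798 kept their direction and side of the threshold, 52 were no longer past it, 9 passed it newly and 4 changed sign. The 4 were of genes that were not called: MDM2 at -0.062 without si-control replicate 1 and -0.00671 without WT RNAP2 replicate 2 (with 1 library left out at a time its values ran from -0.062 to 0.128), MALAT1 at -0.15 without WT RNAP2 replicate 1, and NEAT1 at 0.22 without WT RNAP2 replicate 2. MALAT1 was called without WT RNAP2 replicate 2 (log2 0.80) and NEAT1 without WT RNAP2 replicate 1 (log2 -0.68). Of 720 counts of list members called higher or lower 613 stayed within 1.5 times. The counts of the interferon and G2/M lists, 40 lower and 30 higher, were the same in each alternative run on the lists.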
